A study of Mus musculus with 27 samples.

Results

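The regions described here are the 1-kb bins of the mouse genome that carried strong H3K4me3 and little H3K27me3 in formative pluripotent stem cells (fPSCs) at passage 10. Each autosome of build mm9 was cut into non-overlapping bins of 1000 bp, and each bin took the mean of its 10 windows of 100 bp in RPKM (reads per kilobase of window, scaled to the number of mapped reads), with unlisted windows counted as 0. A bin was a member at 4 RPKM or more of H3K4me3 and under 0.5 RPKM of H3K27me3. Bins with a window over 100 RPKM in both marks were left out. Of 2472335 bins on 19 autosomes, 15443 (0.625%) were members. The measured levels of both marks chose the members, so these levels are given as a description.

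H3K4me3 is a histone mark laid down at active and poised promoters by Set1 and Mll complexes, which are drawn to unmethylated CG dinucleotides through CXXC domains. H3K27me3 is set by Polycomb repressive complex 2 and marks silent developmental genes, and promoters that carry both marks are called bivalent. DNA methylation covers most CG dinucleotides of a mammalian genome but is low at CpG islands, and the de novo methyltransferases avoid histone H3 tails that are methylated at lysine 4.

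The study derived fPSCs from naive mouse embryonic stem cells (mESCs) through three-dimensional Epiblastoids and set them beside mESCs, epiblast-like cells at 48 h (EpiLCs) and epiblast stem cells (EpiSCs). All cells were labelled WT. The mESCs grew without feeders in N2B27 with 2i and LIF. The EpiSCs grew on inactivated mouse embryonic fibroblasts with Activin A, bFGF2 and XAV939, and the fPSCs in Matrigel and N2B27 with the same 3 agents. Chromatin and methylation were measured in fPSCs only, at passage 10, and the labels do not name the line of those cells. RNA came from 2 libraries each of mESCs, EpiLCs and EpiSCs and from 7 libraries of long-term fPSCs. Of these, 3 were passages 10, 20 and 30 in the first deposit, which the study's text gives as the line CMT, and 4 were CMT, 46C, BVSC and ROSAmTmG at passages 11, 24, 14 and 12 in the second. By that text 4 of the 7 were thus CMT, and the cells at passage 11 had been frozen. Passages of a line are no independent derivations, and the labels do not say whether paired libraries came from separate cultures, so the p-values below may cover technical spread only.

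A single file held each chromatin mark and methylation, and none of the files says whether it holds a replicate or a pool of replicates, so these values carry no replicate error. The smallest step in the H3K4me3 file was 1.24 RPKM per 100-bp window, which is what a single read was worth. Of the values below 60 RPKM, 99.999% were whole multiples of it within 0.005 RPKM. The file thus held 8041359 reads, and the H3K27me3 file held 15477161 reads at 0.645 RPKM each. Members had a median H3K4me3 of 6.72 RPKM, from 4.10 to 39.9, which stood on 33 to 321 reads with a median of 54. An exact 95% Poisson interval ran from 2.83 to 5.76 RPKM for 33 reads, from 5.05 to 8.76 for 54 reads and from 35.7 to 44.5 for 321 reads, so a bin at the threshold could not be told from its neighbours. H3K27me3 stood on at most 7 reads, with a median of 2, and 28.4% of members had no H3K27me3 read. For 7 reads of H3K27me3 the interval was 0.181 to 0.930 RPKM, so a member at 7 reads was not resolved from the limit of 0.5. For the median of 2 reads it was 0.0156 to 0.466 RPKM, and for no read 0 to 0.238, both under the limit. These intervals cover counting error only.

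The thresholds cut through a continuous range. The 508 bins just inside at 33 H3K4me3 reads had a median methylation of 0.303 with 66.7% near a start site, and the 527 bins just outside at 32 reads had 0.333 and 63.4%. For H3K27me3, the 563 members at 7 reads had a median methylation of 0.129 and the 466 bins at 8 reads, which were not members, had 0.110. Neighbours across either line thus differed little in methylation and place.

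The sequences upstream of 3 member genes are shown to give the CG content at such starts, beside the start of a germline gene that held no member and a member far from any annotated start, the farthest of those at 8 RPKM or more. Each run is read 5′ to 3′ on the plus strand of mm9 and holds 200 bases, with CG dinucleotides in capitals. The first 4 end at the base before the annotated gene start. Fgf5, a growth factor of the post-implantation epiblast, is shown at chr5:98683003-98683202, Pou5f1, the pluripotency factor Oct4, at chr17:35642782-35642981, and Dnmt3b, a de novo DNA methyltransferase, at chr2:153474986-153475185. Hormad1, a meiotic chromosome axis protein, is shown at chr3:95363399-95363598 and the far member at chr9:120584701-120584900.
Fgf5: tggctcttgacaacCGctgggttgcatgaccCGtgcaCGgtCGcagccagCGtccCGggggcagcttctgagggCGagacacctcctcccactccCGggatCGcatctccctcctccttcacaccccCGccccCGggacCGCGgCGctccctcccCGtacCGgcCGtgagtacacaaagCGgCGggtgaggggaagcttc
Pou5f1: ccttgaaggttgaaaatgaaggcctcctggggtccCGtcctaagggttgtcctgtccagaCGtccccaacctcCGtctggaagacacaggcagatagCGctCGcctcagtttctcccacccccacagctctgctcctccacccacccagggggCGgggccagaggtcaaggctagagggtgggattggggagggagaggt
Dnmt3b: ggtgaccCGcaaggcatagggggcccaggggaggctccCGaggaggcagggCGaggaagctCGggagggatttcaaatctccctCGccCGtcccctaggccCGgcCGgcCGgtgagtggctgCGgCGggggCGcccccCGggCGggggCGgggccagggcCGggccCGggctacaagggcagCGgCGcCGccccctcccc
Hormad1: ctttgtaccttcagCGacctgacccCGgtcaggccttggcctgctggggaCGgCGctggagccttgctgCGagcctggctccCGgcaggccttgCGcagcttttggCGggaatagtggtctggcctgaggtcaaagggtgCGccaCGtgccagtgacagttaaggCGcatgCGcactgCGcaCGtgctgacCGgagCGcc
Far member: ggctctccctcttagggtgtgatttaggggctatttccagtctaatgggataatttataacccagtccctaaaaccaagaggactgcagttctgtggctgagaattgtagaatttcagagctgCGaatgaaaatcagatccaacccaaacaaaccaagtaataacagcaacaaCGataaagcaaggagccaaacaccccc
These runs hold 19, 6, 20 and 16 CG at the 4 gene starts and 2 in the far member. Over the windows that cover them, methylation was at most 0.06 at Fgf5, 0.07 at Pou5f1 and 0 at Dnmt3b, but 0.9 and 1 at Hormad1, whose H3K4me3 was 0 there. CG-rich letters were thus shared by a methylated and by unmethylated starts. H3K4me3 was 4.98 to 7.46 RPKM at Fgf5 and 3.73 to 8.71 at Pou5f1. At Dnmt3b it was 11.2 RPKM in the first window and 0 in the next 2, and its highest window, of 27.4 RPKM, lay 1100 bp downstream of the start. The far member held 17.4 and 7.46 RPKM in these 2 windows, with a methylation of 0 in the one that had a value.

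A member was most often a start site. A transcript start lay inside 7078 members (45.8%) and within 1000 bp of 6006 more (38.9%), so that 84.7% of members were within 1000 bp of a start against 5.78% of all bins. Among bins with both marks the share was 63.0%, and among bins with weaker H3K4me3, from 1 to under 4 RPKM, it was 17.5%. The remaining members were 305 bins on exons, 1017 in introns and 1037 between genes. Members were CpG-rich, with a median of 34 CG per kb against 7 in all bins, and 5479 of them (35.5%) were CpG-island-like (GC content of at least 50% and an observed over expected CG ratio of at least 0.6), as were 0.651% of all bins. Chromosome 11 had the most members per megabase (11.6) and chromosome 1 the fewest (4.43). Per coding gene the gap was smaller, at 0.858 and 0.705, and chromosome 7 had the fewest (0.583).

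Members were low in DNA methylation, which the rule did not use. Over the 15188 members with at least 3 windows of methylation data, the median methylated fraction was 0.124 with quartiles of 0.0200 and 0.346, against 0.920 in all bins and 0.926 in bins with neither mark. Bins with both marks had a median of 0.0960, and bins with weaker H3K4me3 one of 0.832. Of the members 6969 (45.9%) were below 0.1 and 1238 were at 0. A part of the members was methylated all the same: 2236 (14.7%) were over 0.5. The file gives no coverage, so the depth behind a fraction is unknown, and no test over samples was possible.

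Methylation among members followed place and CG content. Members that held a start had a median of 0.0400, members beside a start 0.274, exonic members 0.265, intronic members 0.345 and intergenic members 0.125. In the 985 members with fewer than 10 CG per kb the median was 0.590, and it was 0.413, 0.180, 0.0556 and 0.0125 in the classes of 10, 20, 40 and 60 CG and up. By H3K4me3, whose range among members the rule had cut at 4 RPKM, the median ran from 0.196 in members at 4 to under 6 RPKM to 0.0637 in those at 12 or more. Over the same 15188 members Spearman's rho with methylation was -0.707 for CG content and -0.214 for H3K4me3. These bins share libraries, depth and base composition, and neighbouring bins are not independent, so the coefficients are descriptions, and with H3K4me3 truncated by the rule the sizes of the 2 cannot be compared.

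**Figure D1:**
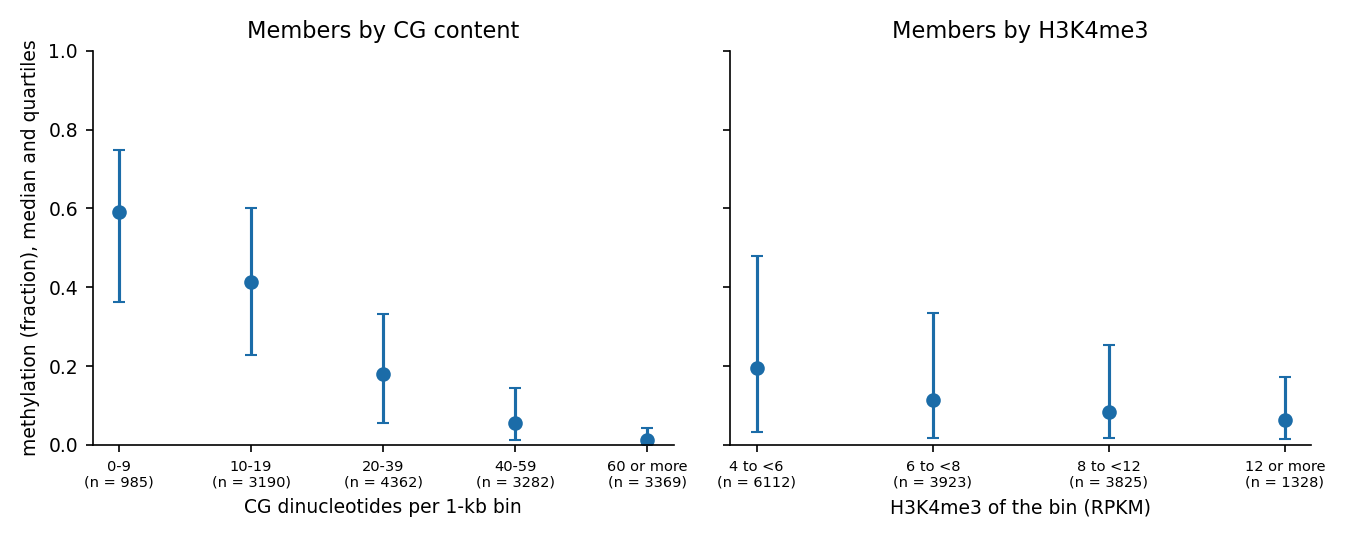
Methylated fraction of members (y axis, median with quartiles as bars) by CG dinucleotides per bin (left) and by H3K4me3 in RPKM (right), with the number of bins under each point. The medians fall from 0.590 to 0.0125 across CG classes and from 0.196 to 0.0637 across H3K4me3 classes.

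A coding gene was counted as a member gene where a member lay within 1000 bp of its start, and 7903 of 21418 autosomal coding genes (36.9%) were. At these starts H3K4me3 formed shoulders on both sides of a dip. The mean was 6.18 RPKM at 500 bp upstream, 4.21 in the window that holds the start and 9.83 at 600 bp downstream. Methylation was lowest at the start itself, with a mean of 0.0190, and rose to 0.838 at 3 kb upstream. Thus the strongest H3K4me3 did not lie on the least methylated window but beside it. Genes with both marks had the same form with a lower downstream shoulder.

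**Figure D2:**
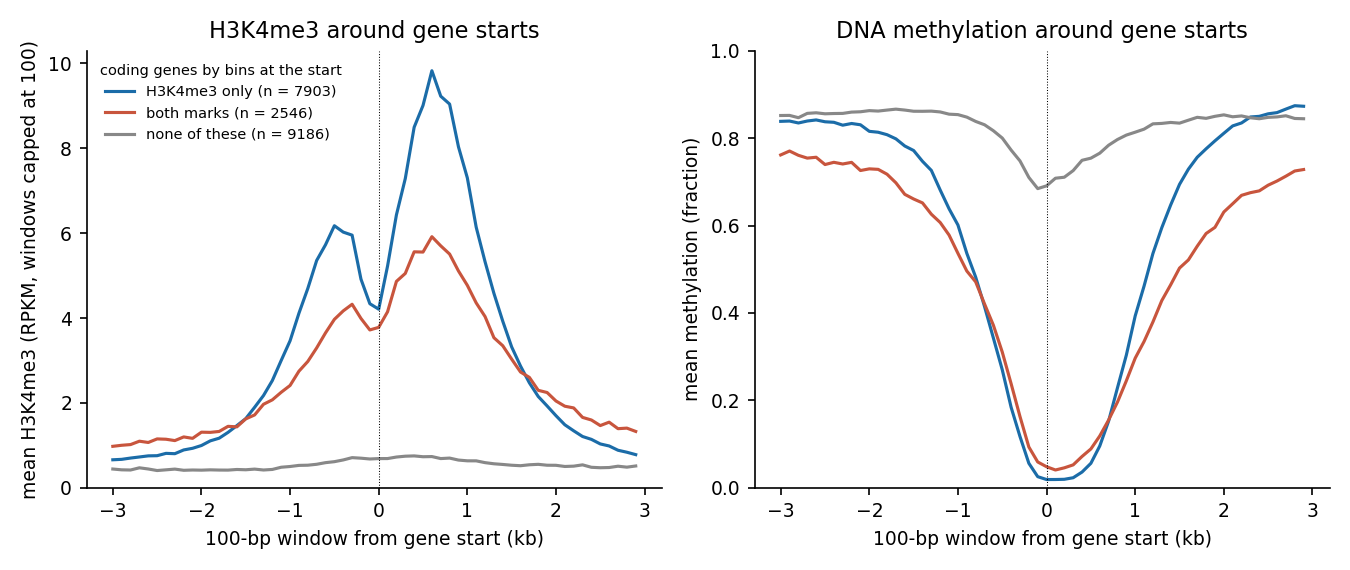
Mean H3K4me3 in RPKM (left) and mean methylated fraction (right) in 100-bp windows from 3 kb upstream to 3 kb downstream of coding gene starts, for genes with a member (H3K4me3 only), with a bin of both marks and with none of these bins at the start. Windows over 100 RPKM were set to 100. In member genes H3K4me3 reaches 9.83 RPKM at 600 bp downstream and methylation falls to 0.0190 at the start.

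Single loci differed in form around this mean. At Pou5f1 the highest window held 29.9 RPKM at 800 bp downstream of the start and 43 of 61 windows within 3 kb reached 4 RPKM, with a mean methylation of 0.005 over 2 kb downstream. At Fgf5 the highest window held 29.9 RPKM at 500 bp downstream, and methylation was 0.0106 downstream and 0.420 upstream of the start. Nanog, a core pluripotency factor, peaked at 26.1 RPKM at 600 bp downstream, with methylation of 0.206 downstream and 0.654 upstream. Its H3K4me3 averaged 12.4 RPKM over 2 kb downstream and 1.87 upstream, so it lacked the upstream shoulder. At Tdgf1 methylation was higher downstream of the start (0.139) than upstream (0.0142). By contrast, Zfp42 (Rex1), a marker of naive cells, had no window at 4 RPKM, and methylation stood at 0.898 downstream and 0.923 upstream.

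Members adjoined one another in 9253 runs. Single bins made 4896 of these (52.9%), runs of 2 bins 2976, and 1381 runs held 3 bins or more. Only 84 runs reached 5 bins. The longest, of 11 bins at chr13:23589001-23600000, held no annotated start. Runs of 10 bins lay at Zfp608, a zinc finger protein gene, and at Bahcc1, which encodes a chromatin reader with a BAH domain. Otx2, a homeobox factor of the formative and anterior epiblast, started in a run of 9 bins with a mean H3K4me3 of 10.4 RPKM, and C230035I16Rik in another of 9. A run of 8 bins at chr19:12080001-12088000 held no annotated start, and runs of 8 bins held the starts of AI480526 and of Fzd7, a Wnt receptor gene. Ier2, an immediate early gene, started in a run of 7 bins. These genes were expressed in fPSCs where the table held them: Fzd7 at 34.3 to 75 FPKM over the 7 libraries (median 52.9), Otx2 at 40.9 to 100.2 (median 56.7), Zfp608 at 10.2 to 14.4 (median 10.5) and Ier2 at 48.9 to 59.9 (median 52.0).

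The member with the most H3K4me3 was chr1:90173001-90174000, at 39.9 RPKM, which lies by the starts of Hjurp, the chaperone of the centromeric histone Cenpa, and Trpm8, a cold-sensing ion channel. Its windows ran from 23.6 to 63.4 RPKM and its methylation from 0 to 0.700, so the level was high across the bin and not in a single window. The next members included those at Malat1, a nuclear noncoding RNA (23.5 RPKM), Kntc1 and Rsrc2 (22.8) and Jarid2, a subunit of Polycomb repressive complex 2 (22.5). Their methylation was low, from 0.00444 at Jarid2 to 0.107 at Malat1. Hjurp was expressed at 34.9 to 83.6 FPKM (median 52.8) and Jarid2 at 17.6 to 32.2 (median 25.4), whereas Trpm8 was listed at 0 in all 7 fPSC libraries.

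Members far from any start were few and weaker. There were 771 (4.99%) beyond 10 kb, with a median H3K4me3 of 4.98 RPKM and a median methylation of 0.151, and 509 of them were single bins. The 57 that met the CpG-island rule had a median methylation of 0.0150, and the other 714 one of 0.176. The farthest with H3K4me3 of 8 or more was chr9:120584001-120585000, at 97538 bp from the nearest start, with 8.33 RPKM and a methylation of 0.0200. The next were 3 adjoining bins at chr8:67733001-67736000, at 79779 to 81779 bp. They held 8.83, 10.9 and 8.58 RPKM and methylation of 0, 0.64 and 0.72 over 3 to 4 windows, so methylation differed within this run. The next was chr17:17372001-17373000, at 79246 bp, with 10.9 RPKM and a methylation of 0.185.

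At the other end stood members beside starts that were almost fully methylated. The 5 most methylated members within 1000 bp of a coding start lay at Plk1, a mitotic kinase (0.987), Tada2b, a subunit of the SAGA complex (0.983), Mgrn1, a ubiquitin ligase (0.983), Dad1, a subunit of the oligosaccharyltransferase (0.980), and Foxred1 and Srpr (0.976). All 5 adjoined other members in runs of 2 to 4 bins, lay 482 to 915 bp from the nearest start and held 5 to 13 CG per kb. Their H3K4me3 was 4.35 to 6.22 RPKM, on 35 to 50 reads. Their methylation rested on 3 to 6 windows of unknown depth. The bin at Mgrn1 also had 7 reads of H3K27me3, which was not resolved from the limit.

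Member genes were expressed. Of the 21418 coding genes, 18333 (85.6%) could be joined to the FPKM table (fragments for each kilobase of transcript, normalised to sequencing depth), 1300 of them through another name, and 7407 of the 7903 member genes were among them. Their median was 12.7 FPKM over the 7 fPSC libraries, with quartiles of 5.11 and 30.5, and 94.2% reached 1 FPKM. Genes with a bin of both marks and no member had a median of 0.751 FPKM, genes with weaker H3K4me3 one of 1.18, and genes with none of these bins one of 0.00317. The median over member genes ran from 11.2 to 13.5 FPKM across the 7 libraries (SD 0.907, n = 7). These medians split by deposit, with 11.2 to 11.6 FPKM in the first and 12.9 to 13.5 in the second. The distance to the other classes was far larger than this spread between libraries. These are bulk samples, in which fewer cells of a type and less RNA per cell cannot be told apart.

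The share of genes with a member rose with expression, from 1.65% of the genes under 0.1 FPKM through 14.2%, 48.5%, 78.2% and 89.2% in the classes from 0.1, 1, 5 and 20 FPKM to 91.7% of those at 100 FPKM or more. Within member genes the median FPKM also rose with H3K4me3, from 6.48 at 4 to under 6 RPKM through 10.3 and 15.2 to 29.0 at 12 RPKM or more. Genes in single bins had a median of 9.33 FPKM and genes in runs of 2, 3, 4 and 5 or more bins medians of 14.6, 18.5, 24.6 and 21.9. Spearman's rho with FPKM over the 7407 genes was 0.368 for H3K4me3 and 0.229 for run length. Genes are not independent replicates, and a description is all these coefficients give. Among genes at 10 to under 30 FPKM the SD of log2 FPKM over the 7 libraries had a median of 0.301 in member genes, 0.336 in genes with both marks and 0.376 in genes with none of these bins.

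**Figure D3:**
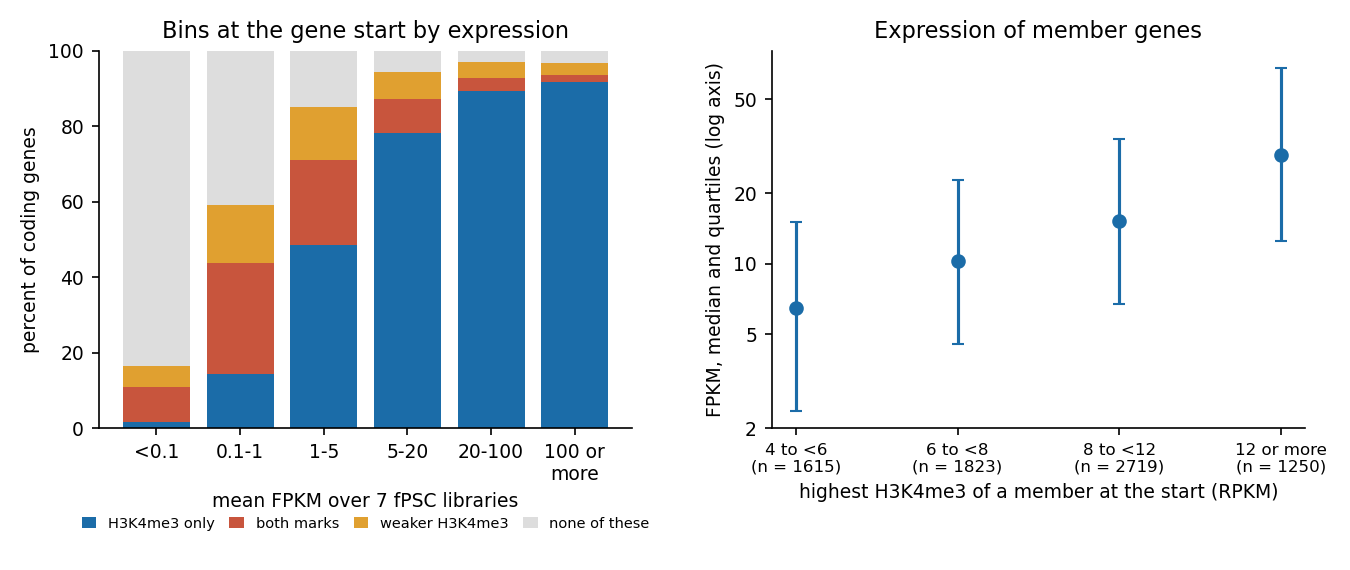
Left, percent of coding genes with each kind of bin at the start, by mean FPKM over the 7 fPSC libraries. Right, FPKM of member genes (log axis, median with quartiles as bars) by the highest H3K4me3 of a member at the start. The share with a member rises from 1.65% to 91.7%, and the median FPKM from 6.48 to 29.0.

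Exceptions existed on both sides. There were 56 member genes under 0.1 FPKM in all 7 fPSC libraries, and at 31 of them the same bin also lay by the start of another gene at 1 FPKM or more. The 5 with the most H3K4me3 all had such a neighbour. They were Trpm8 beside Hjurp, Cct6b, a testis form of a chaperonin subunit, beside Zfp830, Mageb3 beside Ctdspl2, Cfap57, a cilia protein gene, beside Ebna1bp2, and Styxl1 beside Mdh2, the mitochondrial malate dehydrogenase. Conversely, 157 of 2978 genes at 20 FPKM or more had no member within 2500 bp of any of their starts. Of these, 70 had a bin of both marks within 1000 bp of the gene start. Within 2500 bp of any start, 41 reached 3 to under 4 RPKM of H3K4me3 at most, and 18 stayed under 1 RPKM. The highest were Rpl8, a ribosomal protein gene, at 1812 ± 297 FPKM (SD, n = 7), and Hspa8, a chaperone, at 854 ± 275. H3K27me3 in the start bins of these 2 genes was 0.514 and 0.515 RPKM, just over the limit. H3K4me3 in these start bins was 9.95 RPKM at Rpl8 and 3.98 at Hspa8, the latter also under the H3K4me3 limit. Their strongest bins of both marks were other bins, with 13.4 and 10.9 RPKM of H3K4me3. Eno1b and Rps3a2 were among the next, at 497 and 448 FPKM, with start bins methylated at 0.957 and 0.939. Both have near-identical copies elsewhere, so their FPKM are uncertain.

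Head-to-head genes were often members. In 778 pairs of coding genes whose starts lay within 1000 bp of each other on opposite strands, 83.6% of the 1551 genes were member genes, against 33.3% of the other 19867. The median of the highest member H3K4me3 was 10.1 RPKM in the pairs and 7.96 in the others, and median FPKM was 11.6 and 12.9.

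Gene lists differed in their share of member genes, which was 36.9% over all autosomal coding genes. This share also depends on expression, and was 89.2% at 20 to under 100 FPKM and 91.7% at 100 FPKM or more. Housekeeping and ribosomal protein genes, with medians of 118 and 566 FPKM, are to be set beside the latter. Some lists of genes that most cells use were nearly all member genes: 22 of 24 housekeeping genes, 21 of 21 genes of cholesterol synthesis and uptake, 33 of 34 subunits of respiratory complex I and 69 of 76 ribosomal protein genes. Sqle, the squalene epoxidase, had the highest H3K4me3 of the cholesterol genes (22.0 RPKM, methylation 0.00375, 94.4 ± 8.76 FPKM). At Lss, the lanosterol synthase, the member itself was methylated at 0.948 with 5.35 RPKM. The housekeeping genes without a member were Gusb, with both marks and an H3K27me3 of 1.42 RPKM in its start bin, and Rpl13a, with 1.48. In other lists the share was lower. It was 13 of 16 for Polycomb and trithorax genes, 38 of 47 for proteasome subunits, 49 of 67 for replication-dependent histones and 202 of 333 for zinc finger genes. The histone member genes had a median of only 0.449 FPKM. Their RNAs lack a poly(A) tail, and no source used here says whether the libraries selected poly(A) RNA. Primed and gastrulation genes stood at 2 of 12, imprinted genes at 3 of 19 and fibroblast genes at 2 of 22. Some lists held no member at all: 0 of 17 lineage regulators, 0 of 39 Hox genes, 0 of 20 germline genes and 0 of 1081 olfactory receptors. Of the lineage regulators 12 had a bin of both marks, such as Gata6, an endoderm factor (6.72 RPKM), whereas 18 of the germline genes had none of these bins and were methylated at 0.801 to 0.983 in the start bin. Dazl, a germ cell RNA-binding protein gene with 95 CG in its start bin, stood between at 0.490.

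**Figure D4:**
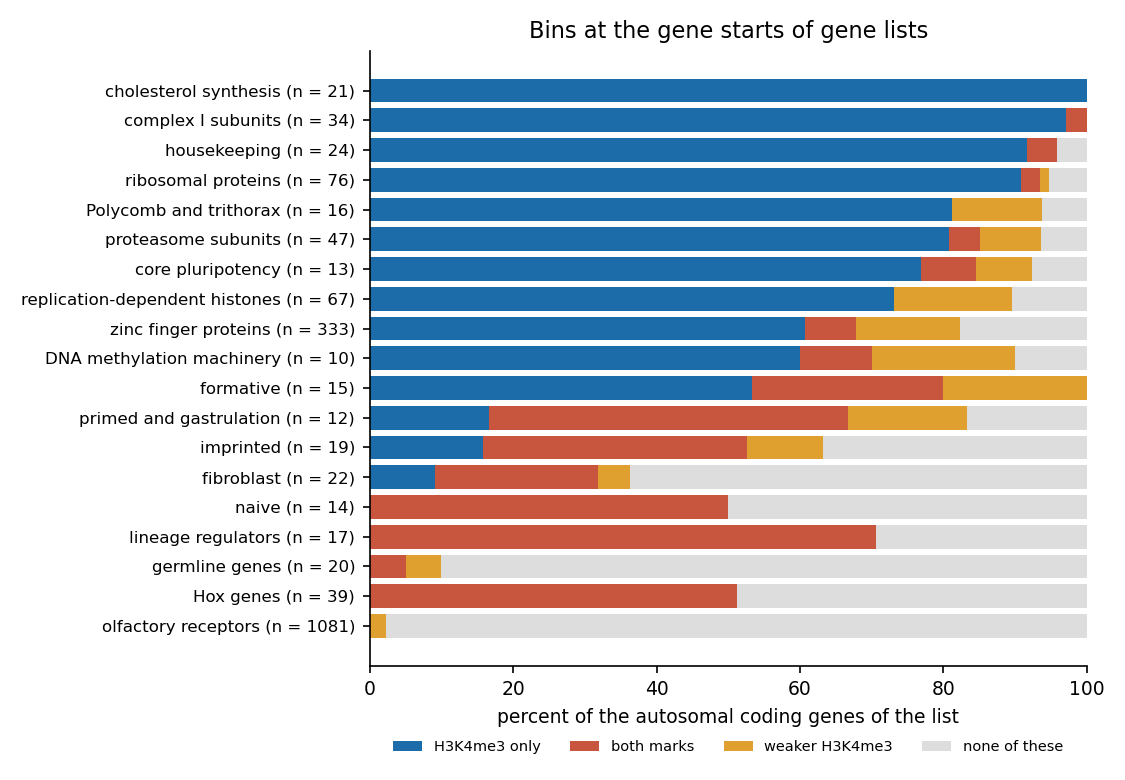
Percent of the autosomal coding genes of each list with a member at the start (H3K4me3 only), with both marks, with weaker H3K4me3 or with none of these bins. All 21 cholesterol genes and 22 of 24 housekeeping genes have a member, and none of the naive genes, lineage regulators, germline genes, Hox genes and olfactory receptors does.

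Core pluripotency genes were mostly members, at 10 of 13. Their median was 72.7 FPKM, and of all coding genes at 20 to under 100 FPKM 89.2% were member genes. Pou5f1 had 18.8 RPKM with a methylation of 0.01 in its strongest bin, Tdgf1, an epidermal growth factor-like co-receptor of Nodal, 17.9 with 0.0844, Nanog 15.7 with 0.0778 and Zscan10, a zinc finger factor, 15.4 with 0.064. Lin28a, which blocks let-7 maturation, had 12.9 RPKM, Utf1, a chromatin protein of pluripotent cells, 10.7, and Trim28, a corepressor of retroelements, 10.3. Sall4 followed with 7.22 RPKM, and Zfp281 (4.73 RPKM) and Sox2 (4.23) were near the threshold. Sox2 also had a bin of both marks nearby (6.97 RPKM). Of the other 3 genes, Foxd3, a forkhead repressor, had a bin of both marks, Dppa4 only weaker H3K4me3 with a start bin methylated at 0.958, and Dppa2 none of these bins with 0.760.

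Of the 15 autosomal formative genes, 8 were member genes. The median of those with an FPKM value was 29.2 FPKM, a level at which 89.2% of all coding genes (20 to under 100 FPKM) were member genes. Some of these genes were picked by the study on these samples, so their share is not independent evidence. Fgf5 led with 16.9 RPKM in the bin of its start. Otx2 had 15.7 RPKM, Dnmt3b 14.9, Esrp1, an epithelial splicing regulator, 12.6, Etv1, an ETS factor, 9.70, and the transcription factors Zfp13, Zic5 and Sox4 had 8.71, 6.59 and 5.97. All 8 strongest bins were methylated below 0.1, from 0 at Zfp13 to 0.066 at Esrp1. Pou3f1, Zic2, Grhl2 and Fgf8 carried both marks, and Lin28b, Etv4 and Dnmt3a stayed at weaker H3K4me3, with start bins at 3.73, 3.73 and 1.12 RPKM. These 7 genes were expressed too, at 5.23 to 85.1 FPKM, and Sox4 had no FPKM here because its name is listed 2 times.

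None of the 14 naive genes was a member gene. Tfcp2l1, Klf4, Tbx3, Fgf4, Klf2, Klf5 and Jam2 had a bin of both marks, with 4.48 to 8.46 RPKM of H3K4me3 in it and start bins methylated at 0 to 0.209. Prdm14, Nr5a2, Dppa3, Zfp42, Dppa5a, Esrrb and Tcl1 had none of these bins and start bins methylated at 0.695 to 0.959. In fPSCs Fgf4 had a mean of 7.99 FPKM and Klf5 of 2.33, and the means of the other 12 stayed under 1 FPKM. The 14 genes stood at 25.6 to 2169 FPKM in mESCs.

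Among 19 imprinted genes Mcts2 (5.60 RPKM, methylation 0.214), Peg3, a zinc finger gene (6.72 RPKM, 0.110), and Zrsr1, a splicing factor retrogene (15.4 RPKM, 0.0163), were member genes. Sgce, Peg10, Inpp5f, Rasgrf1, Plagl1, Slc38a4 and Igf2r had both marks, Gnas and Mest weaker H3K4me3, and Nnat, Nap1l5, Zim1, Snrpn, Cdkn1c, Grb10 and Dlk1 none of these bins. These classes hold for the 1 annotated gene start of each gene and leave out its other transcript starts. Snrpn, a splicing protein gene, was expressed at 192 ± 40.4 FPKM, and the bin of its gene start held 0.496 RPKM and was methylated at 0.896. A member did lie within 2500 bp of an annotated transcript start of Snrpn, so these values do not describe all its promoters. Reads of the 2 parental alleles were not separated.

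Of the 10 genes of DNA methylation, 6 were member genes. Dnmt3b had 14.9 RPKM, Dnmt1, the maintenance enzyme, 11.8, its partner Uhrf1 10.8, Tdg, a glycosylase of the demethylation path, 9.58, Tet3, a methylcytosine dioxygenase, 6.72, and Zfp57, which protects imprints, 4.23. Tet2 had both marks, Dnmt3a and Tet1 weaker H3K4me3, and Dnmt3l, a cofactor of de novo methylation, none of these bins with a start bin methylated at 0.965. Dnmt3b reached 478 ± 80.7 FPKM, whereas Dnmt3l reached 0.0276 FPKM at most over the 7 libraries.

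Promoters of member genes, read from 250 bases before the start to 50 bases after it in mm9 for 21387 coding genes, differed in letters from the others. They held a median of 22 CG, against 20 with both marks, 8 with weaker H3K4me3, 3 with none of these bins and 12 over all. On either strand, the ETS-type word CCGGAAGT occurred in 11.1% of the 7893 member promoters, 1.45% of promoters with both marks and 4.77% of all. The NRF1-type word GCGCATGCG occurred in 4.52%, 1.26% and 2.13%, the YY1-type word AAGATGGC in 5.88%, 0.904% and 3.32%, and the Zbtb33-type word TCTCGCGAG in 1.94%, 0.354% and 0.846%. The Sp1-type word GGGCGGGG did not set members apart from promoters with both marks, at 34.3% and 35.4% against 22.3% of all. The TATA word TATAAA occurred in 6.22% of member promoters, 7.43% of those with both marks and 13.5% of all. Among promoters with at least the median of 12 CG, it occurred in 4.87% of members and 6.22% of those with both marks. There it stood at 4.28% with weaker H3K4me3 and 5.34% with none of these bins, so it did not set members apart. These words are shared by factors of a family and match by letters only, and all of them but AAGATGGC and TATAAA hold CG themselves.

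The RNA comparisons ask how genes with such a start in fPSCs differ from the naive and the primed state. Of the 7407 member genes 7142 passed the filter of 1 FPKM in no fewer than 2 of 13 libraries and were tested with limma on log2(FPKM + 1), on which changes of weakly expressed genes come out too small, with Benjamini-Hochberg adjustment over all 12513 genes tested. The comparisons share the fPSC libraries.

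Against mESCs, 6 of the 7 tested member genes of the formative list rose and those that changed in the core list went both ways. Of the tested member genes 1208 (16.9%) were higher in fPSCs and 1107 (15.5%) lower, with a median difference of 0.02 on the log2 scale. Over all genes tested 17.3% were higher and 23.0% lower, with a median of -0.04. The share of higher member genes was near that of all genes, and the share of lower ones was below it. Genes with both marks stood at 20.9% and 32.5%, and genes with none of these bins at 12.9% and 43.4%. Within the first deposit 26.3% of member genes were lower (31.9% of all genes, median -0.17), and with only the fPSCs of the second deposit, which has no mESCs of its own, 15.1%.

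Fgf5 had 72.9 to 109.1 FPKM in the 7 fPSC libraries (median 93.1), against 0.0558 and 0.0191 in mESCs. It rose by 6.49 on the log2 scale (SE 0.18, limma adjusted p = 1.57e-11). No fPSC library overlapped the mESCs. Dnmt3b had 361 to 595 FPKM (median 486) against 14.4 and 13.4, a difference of 4.99 (SE 0.18, limma adjusted p = 2.34e-10). Of the 7 formative member genes tested, Dnmt3b, Esrp1, Fgf5, Etv1, Otx2 and Zic5 rose, and Zfp13 differed by 0.03. Over all 14 formative genes tested 13 rose. Some of these were picked by the study for their level in these libraries, so their rises here and against EpiSCs are descriptions and no independent evidence. The core genes Lin28a (3.57) and Utf1 (2.60) rose and Sox2 (-2.80), Nanog (-2.18) and Tdgf1 (-1.26) fell, while Pou5f1, at 462 to 1025 FPKM against 760 and 764, differed by -0.21 (limma adjusted p = 0.645). With the fPSCs of the first deposit only, which also holds the mESCs, Pou5f1 was lower by the test (-0.65, limma adjusted p = 0.0440), and with those of the second it differed by 0.12. Eomes, a T-box factor of gastrulation, and the ligand gene Wnt3 rose by 2.97 and 4.01.

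The other largest rises against mESCs were Car4 (6.07) and Car14 (5.29), carbonic anhydrases, Pkdcc, a secreted kinase gene (5.62), Vrtn (5.13), Epha1, an ephrin receptor (5.08), Dbn1, an actin-binding protein (4.77), Ramp3, a receptor accessory protein (4.75), and the proliferation factor Myc (4.68), with SEs of 0.17 to 0.33 apart from Car4 (1.22). Car4 ranged from 1.64 FPKM in 46C at passage 24 to 163 in ROSAmTmG at passage 12, against 0.0121 and 0 in mESCs. In the second deposit a single line thus lay far below the others. Of the 10 largest falls, 6 were histone H2A genes, Hist1h2an (-6.68), Hist1h2ah, Hist1h2ad, Hist1h2ai, Hist1h2af and Hist1h2ab, near-identical paralogs whose FPKM are uncertain. Hist1h2an had 291 and 206 FPKM in mESCs and 0.661 to 2.68 in fPSCs. It also had 1.35 and 2.51 FPKM in EpiLCs, so the mESC libraries stood apart from the rest. In the histone list 18 of 26 tested member genes were lower than in mESCs and 1 was higher. Of all member genes tested 15.5% were lower, and of all genes tested 23.0%. The other falls were Socs3, a target and inhibitor of LIF signalling (-4.83), S100a13 (-4.33), Pfkp, a phosphofructokinase (-4.30), and Fn1, the matrix protein fibronectin (-4.21), and the SEs of the 10 falls ran from 0.18 to 0.50. All 20 genes kept their call in the 11 alternatives of the fit.

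Cholesterol genes were higher in 12 of 21 and lower in none, against 17.3% and 23.0% of all genes tested, with a median difference of 0.67. Idi1, an isomerase of the path, stood at 61.8 FPKM against 15.6 in mESCs (1.80). Ribosomal protein genes were lower in 22 of 69 (median -0.66) and complex I genes in 10 of 32 (median -0.54), and none of either list was higher. Among all member genes tested 15.5% were lower and 16.9% higher, with a median of 0.02. Of the methylation genes Dnmt3b and Tet3 (1.63) rose and Zfp57 fell by 2.84, and the rise of Tet3 was lost without mESCs replicate 2 (limma adjusted p from 7.14e-04 to 0.0524 over the alternatives). Mcts2 (0.66) and Peg3 (2.1) rose and Zrsr1 (-0.79) fell. The call of Mcts2 was lost without mESCs replicate 1 (limma adjusted p = 0.126) and that of Zrsr1 without either mESC library.

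**Figure D5:**
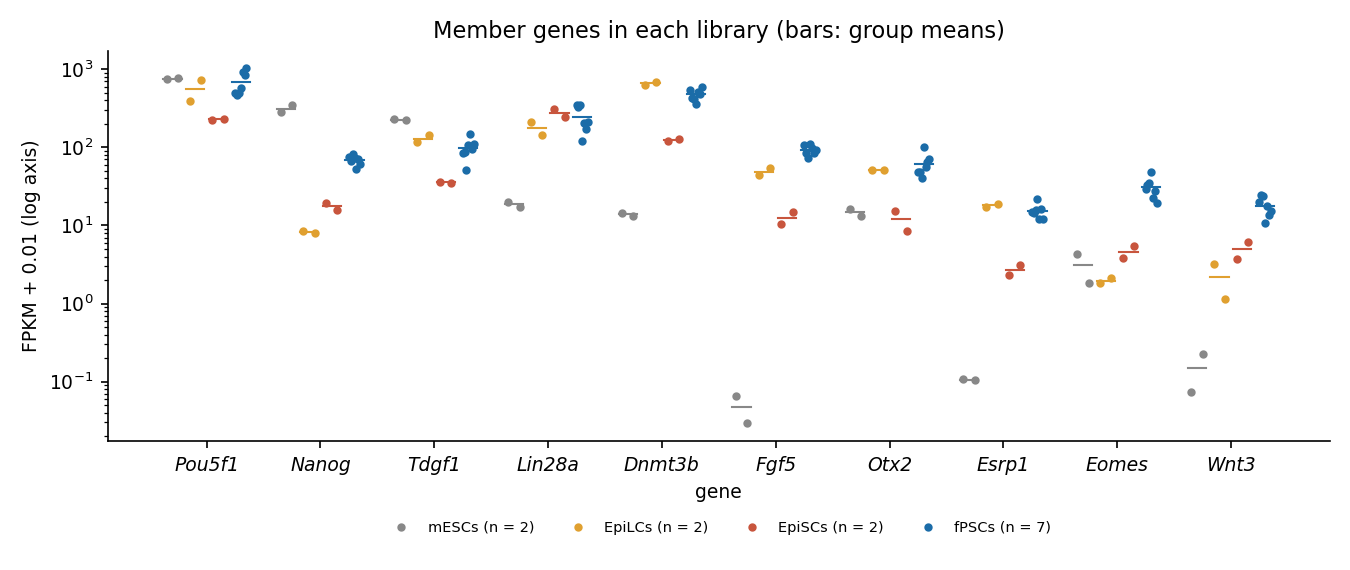
FPKM + 0.01 on a log axis of 10 member genes in each library of mESCs, EpiLCs, EpiSCs (n = 2 each) and fPSCs (n = 7). Each point is a library and each bar a group mean. Fgf5 lies at 72.9 to 109.1 FPKM in fPSCs, above all other groups, and Pou5f1 in fPSCs spans the level of mESCs.

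Against EpiSCs, the largest rises among member genes were those of Ap1m2 and Rab25, and the largest falls those of Col1a2 and Fn1, as set out below. Of the 7142 tested member genes 1208 (16.9%) were higher in fPSCs and 807 (11.3%) lower, with a median of 0.15, whereas 13.3% of all genes tested were higher and 19.0% lower, with a median of 0.02. That 1208 genes were higher in either comparison is a coincidence of counts. Members made up 82.1% of the 1471 autosomal coding genes higher than in EpiSCs and 36.1% of the 2238 lower ones, against 67.8% of those that did not pass the test. Members were chosen by H3K4me3 in fPSCs, which rose with FPKM in fPSCs. The choice itself thus favours genes high in fPSCs, here and against mESCs, so these shares are descriptions. The counts rested on single EpiSC libraries. Without EpiSCs replicate 1, 9.03% of member genes were higher, and without replicate 2 only 3.27%, and the lower ones came to 7.79% and 4.81%. The shares over all genes tested fell as well, to 7.11% and 2.84% higher and 13.0% and 9.62% lower. Within the first deposit 12.0% were higher (10.1% of all genes), and with the fPSCs of the second deposit 29.9% (24.3% of all genes).

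The EpiSCs grew on fibroblasts, and genes known from fibroblasts were higher in their libraries. The summed level of 22 such genes was 781 and 949 FPKM in EpiSCs, 10.9 to 17.6 in fPSCs and 3.33 to 9.86 in mESCs. Of the 17 tested genes of this list 15 were lower in fPSCs and none higher, against 19.0% and 13.3% of all genes tested. The 6 pluripotency genes summed to 667 and 782 FPKM in EpiSCs and 970 to 1503 in fPSCs. Whether this RNA came from feeder cells or from the EpiSCs, and its part in the differences below, was not tested.

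The largest rises were Ap1m2, an epithelial clathrin adaptor (4.12), Rab25, an epithelial GTPase (3.88), Cldn7, a tight junction protein (3.40), Crb3, an apical polarity protein (3.02), Fgf5 (2.80), Cdh1, which encodes E-cadherin (2.53), Eomes (2.46), Epcam, an epithelial adhesion molecule (2.35), Kcnk1, a potassium channel (2.28), and Otx2 (2.26), with SEs of 0.17 to 0.36. Ap1m2 had 17.8 to 42.4 FPKM in fPSCs (median 27.9) against 0.482 and 0.826 in EpiSCs. Cdh1 had 141 to 198 FPKM (median 160) against 26.8 and 29.0, with a limma adjusted p that stayed past the threshold in all 11 alternatives, as it did for the other 9.

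The largest falls included Col1a2 (-5.86) and Col5a1 (-4.52), fibrillar collagens, Fn1 (-5.12), Acta1, an actin of muscle (-4.99), Lmna, lamin A (-4.74), Vim, the mesenchymal filament protein vimentin (-4.69), Lgals1, galectin (-4.53), Mvp (-4.24), Prss23 (-4.08) and Cyr61, a secreted Yap target (-3.78), with SEs of 0.17 to 0.57. Vim had 24.3 to 68.5 FPKM in fPSCs (median 51.3) against 1107 and 1232 in EpiSCs. Col1a2 and Col5a1 are the only fibroblast list genes with a member, at 4.36 and 5.22 RPKM near the threshold. The 10 strongest bins of these genes held 4.36 to 6.84 RPKM.

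Of the 10 core member genes Nanog (1.90), Pou5f1 (1.51), Tdgf1 (1.37), Utf1 (1.30), Zscan10 (1.01) and Zfp281 (0.79) were higher than in EpiSCs and Sox2 was lower (-1.21). Nanog had 53.6 to 82.8 FPKM (median 70.8) against 19.6 and 15.7, with no overlap. The calls of Utf1 and Zfp281 were lost without either EpiSC library, that of Zfp281 also with the fPSCs of the first deposit only (0.49, against 1.02 with those of the second), that of Zscan10 without replicate 1 and that of Pou5f1 without replicate 2 (limma adjusted p = 0.0539). Of the 7 formative genes Dnmt3b, Esrp1, Fgf5, Otx2 and Zic5 rose, and the call of Zic5 was lost without EpiSCs replicate 2 (limma adjusted p = 0.0560). Against 13.3% of all genes tested, cholesterol genes were higher in 8 of 21, led by Idi1 (1.82) and Insig1, a sterol sensor (1.29). Ribosomal protein genes were higher in 30 of 69 with a median of 0.86, complex I genes in 10 of 32 with 0.75, and Polycomb and trithorax genes in 3 of 13, namely Suz12 (1.26), Pcgf6 (0.94) and Eed (0.72), a count too small to set beside that share. Wnt3 rose by 1.66, Mcts2 by 1.53 and Zrsr1 by 0.99.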

How the data were processed

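The authors deposited H3K4me3 and H3K27me3 of fPSCs as RPKM in 100-bp windows, made by STAR ChIP-seq with MNase digestion, Trim Galore, Bowtie2 2.2.2 alignment on mm9, and removal of duplicates and multi-mapped reads. Methylation was deposited by the authors as a fraction from 0 to 1 in 100-bp windows, from whole-genome bisulfite reads aligned with BS-Seeker2, without coverage. RNA was deposited by the authors as FPKM (cutadapt 1.11, TopHat2 2.1.1, Cufflinks 2.1.1). It gives no counts, so depth is unknown.

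Bins, distances and sequences were computed on the NCBIM37 assembly (mm9) and its annotation. A bin's methylation is the mean of its windows, with at least 3 required. The comparisons used limma 3.58.1 (R 4.3.3, trend option) on log2(FPKM + 1), in 1 fit over 13 libraries, for genes that reached 1 FPKM in 2 or more of them. A call needed a 1.5-fold change and an adjusted p under 0.05. Of 23608 table entries, 4 were left out because of repeated names. The steps were tested on simulated data.

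The members and gene lists were chosen with earlier results of these data known. Genes and bins named are the 5 or 10 most extreme by each measure, all genes of the core, formative, naive, imprinted and methylation lists, and the 10 largest rises and falls per comparison. Others (examples of other lists, the list genes whose values are set out by locus, and head-to-head pairs) were chosen after their values were seen. Single-cell counts, Epiblastoids and fPSCs from epiblasts were not used here, and some genes that would otherwise be named are not reported here.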

Additional observations from a re-analysis of the deposited data

Results flagged for a closer look

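Single libraries stood apart from the other 6 fPSC libraries in 5 of 65 member genes and other named genes tested with Dixon's rule. Chance flags about 1 in 20 such groups. In the 46C line at passage 24, Pkdcc had 87.7 FPKM against 40.9 to 50.8 in the others, and Esrp1 had 21.6 against 11.9 to 16.0. At passage 30 of the first deposit, Vrtn had 56.3 FPKM against 27.2 to 38.1 and Bahcc1 15.0 against 9.26 to 11.2. In ROSAmTmG at passage 12, Zfp608 had 14.4 FPKM against 10.2 to 11. In each case the flagged library was the highest. Pkdcc, Esrp1 and Vrtn stayed above both mESC libraries in all 7 fPSC libraries.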

How the results depend on the processing

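The level of H3K4me3 asked for moved most values. At 8 RPKM or more 5186 bins were members, with a median methylation of 0.0786, 92.1% near a start, 19.7% of coding genes, a median of 18.4 FPKM and 6.41% lower than in EpiSCs. At 2 RPKM or more there were 32943 bins, with 0.321, 59.5%, 43.1% and 10.9 FPKM. With H3K27me3 under 0.25 and under 1 RPKM the shares near a start were 85.7% and 83.5%, those of coding genes 30.3% and 41.0%, and the medians 14.3 and 11.2 FPKM. Median methylation was 0.102 with at least 6 windows and 0 with the median over windows. A start inside the bin gave 45.8% and a start within 2500 bp 90.8%. Members that hold the gene start gave 26.2% of coding genes, and any coding transcript start 38.7%. Median FPKM was 11.6 at passage 10 alone and 11.5 in the first deposit. With fPSCs of the first deposit only, 26.3% were lower than in mESCs, and with those of the second, 29.9% were higher than in EpiSCs. Leaving out an EpiSC library gave 3.27% to 9.03% higher and 4.81% to 7.79% lower, and leaving out an mESC library gave 11.7% to 12.5% higher and 10.5% to 10.7% lower than in mESCs. A lone library was assumed to vary like the other groups, and fewer samples leave fewer calls over all genes too. Shifting the bins by 500 bp, the pseudocount, the filter and the scaling moved none of these values beyond the limits set. Keeping the bins of high values could not change the members, since a window over 100 RPKM of H3K27me3 puts a bin above the limit, and so shows nothing on stability. No paired analysis was possible because the fPSC libraries carry passages and lines, not replicate numbers shared with mESCs or EpiSCs.

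Chromatin and methylation rest on a file each, from fPSCs only, so nothing here says whether a member arose in fPSCs. The RNA libraries come from more than 1 line. Counting error is wide at the thresholds, and methylation has no coverage.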
